A study of Mus musculus with 10 samples.

Results

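Of 37 genes listed for the breakdown of glucose and for respiration, 35 were measured among the 18194 genes of these mouse arrays. They were 16 of 18 genes of glycolysis, glucose and lactate transport and pyruvate dehydrogenase control, and 19 of 19 genes of the mitochondrial respiratory chain. Genes were found by symbol in the platform's gene table, and each was read through the probe set with the highest mean log2 intensity over the 10 arrays. Gpi1 and Eno1 were not analysed here. Gapdh was read through the array's own control probe sets, since these are what the gene table pairs with it.

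The cells were secondary inducible MEFs, mouse embryonic fibroblasts in which doxycycline switches on the reprogramming factors Oct4, Sox2, Klf4 and c-Myc, of a hybrid strain labelled 129/SvJ x C57/B6. The control was uninduced and kept in medium with 0.5% serum. The 4 induced cohorts received doxycycline, labelled as 2 ug/ul, in medium with 15% serum, and were labelled with an average of 0, 1, 2, or 3 or more cell divisions, all at 96 h. Each of the 5 groups had 2 arrays. Doxycycline and serum therefore changed together between the control and every induced cohort, and their parts cannot be told apart. Both samples of the control and of 3 or more divisions are labelled as biological replicates, and the other 6 samples only as replicates. None is tied to a culture or an animal, and the labels do not state which line the cells came from or how the cohorts were parted, so the p-values measure only the spread between these samples, which may be technical. The series asked how gene expression moved in the first phase of reprogramming, and the cohorts add whether it moved with division.

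Glycolysis splits glucose into pyruvate in the cytosol and yields ATP without oxygen; lactate dehydrogenase then regenerates the NAD it needs, and the lactate leaves the cell through monocarboxylate transporters. Pyruvate can instead enter the mitochondrion, where its electrons pass through complexes I to IV of the respiratory chain and the resulting proton gradient drives ATP synthase. Pluripotent stem cells are known for relying more on glycolysis than fibroblasts do, and Myc is a known activator of many glycolytic genes through the E-box sequence.

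As a check of the label, the fibroblast markers Vim and Col3a1 were bright on all 10 arrays, at 14.20 to 14.40 and 13.61 to 14.64 in log2 intensity. Others varied more, with Pdgfra from 7.40 to 11.28 and Lum from 8.81 to 12.69. Against the control, 7 of 12 fibroblast markers were called lower and 0 higher after 3 or more divisions. Of all genes 11.7% were called lower and 15.9% higher. In a fit with the replicate number as a block, 9 of the 12 were lower and 1 was higher. The largest of the 7 falls called without the block were Pdgfra at -2.95, Dcn at -1.98 and Pdgfrb at -1.96. The log2 of the summed intensity of the 12 markers was 17.11 and 17.07 in the control and 16.57 and 16.36 in that cohort. Keratin and other epidermal markers moved the other way, with 7 of 11 higher and a log2 sum of 8.62 and 8.35 against 11.97 and 11.91, led by Krt16 and Krt14, while Krt5 stayed at 4.92 to 5.31 on all arrays. Of the 8 macrophage markers 1 rose (Cd68) and 1 fell (Lyz2), and Adgre1 and Itgam lay between 3.31 and 4.38 on all arrays. Of 8 skeletal muscle markers 2 fell and 0 rose. With 8 genes each, nothing particular is read from the macrophage and muscle counts beside the shares of all genes. In such bulk RNA a change in the make-up of the cells and a change per cell cannot be told apart, and the part of these markers in the results was not tested. RMA, a method of array summarization, is named by the submitters' processing notes for 4 arrays, those of the control and of 3 or more divisions, and no tool is named for the other 6. No group spans both sets, so for the comparisons that cross them, namely 0, 1 and 2 divisions with the control and 3 or more with 2 divisions, set and group cannot be told apart.

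Promoter sequences of members that rose together, or did not, show what the Myc-type E-box CACGTG looks like in these genes. In RefSeq windows of the GRCm38.p6 build, from 250 bases before to 50 after a gene's start, it lay in 3 of 16 glycolysis genes (18.8%), namely Slc16a1, Ldha and Pfkm, and in 1 of the 15 respiratory chain genes with a window (6.67%), Ndufv1. Over all 27025 genes with a window the share was 8.09%. The hypoxia response core, ACGTG or GCGTG on either strand, was in 15 of the 16 glycolysis genes (93.8%). It was in 11 of 15 respiratory chain genes (73.3%) and in 46.7% of all genes. ACGTG lies within CACGTG, and genes with several windows counted once if any of them matched. The 16 glycolysis genes had 25 windows and the 15 respiratory chain genes 15. Counted by window, the shares with the core were 76%, 73.3% and 43.8% for glycolysis, respiratory chain and all genes. Those with the E-box were 12%, 6.67% and 7.15%. The 250 bases before the start are printed 5′ to 3′ for the 4 genes with an E-box, in capitals, and for Hk2, which had none in its window. Ldha has 2 windows and Pfkm has 4. The first is shown for each, and it is the only window of either gene with an E-box.
Slc16a1 (chr3:104638414-104638663, + strand): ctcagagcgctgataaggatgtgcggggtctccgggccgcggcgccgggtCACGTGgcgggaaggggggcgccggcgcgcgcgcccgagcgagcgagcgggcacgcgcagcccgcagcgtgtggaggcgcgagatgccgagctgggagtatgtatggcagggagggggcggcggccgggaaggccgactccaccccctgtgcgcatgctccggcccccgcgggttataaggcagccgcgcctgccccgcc
Ldha (chr7:46845554-46845803, + strand): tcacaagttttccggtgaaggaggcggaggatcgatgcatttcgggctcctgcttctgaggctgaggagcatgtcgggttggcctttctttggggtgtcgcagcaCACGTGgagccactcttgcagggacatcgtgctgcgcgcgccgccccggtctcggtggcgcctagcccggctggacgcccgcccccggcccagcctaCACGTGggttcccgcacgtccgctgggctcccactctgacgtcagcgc
Pfkm (chr15:98092339-98092588, + strand): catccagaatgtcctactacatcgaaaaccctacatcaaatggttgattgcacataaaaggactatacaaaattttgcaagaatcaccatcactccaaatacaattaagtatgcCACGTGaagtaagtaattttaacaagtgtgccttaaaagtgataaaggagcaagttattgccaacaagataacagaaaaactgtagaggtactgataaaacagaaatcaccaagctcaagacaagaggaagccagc
Ndufv1 (chr19:4012756-4013005, - strand): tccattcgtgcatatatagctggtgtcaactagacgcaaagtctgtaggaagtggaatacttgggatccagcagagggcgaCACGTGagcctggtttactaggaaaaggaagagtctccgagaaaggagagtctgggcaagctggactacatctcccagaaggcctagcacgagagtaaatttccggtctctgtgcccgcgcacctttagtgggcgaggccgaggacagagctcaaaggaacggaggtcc
Hk2 (chr6:82774455-82774704, - strand): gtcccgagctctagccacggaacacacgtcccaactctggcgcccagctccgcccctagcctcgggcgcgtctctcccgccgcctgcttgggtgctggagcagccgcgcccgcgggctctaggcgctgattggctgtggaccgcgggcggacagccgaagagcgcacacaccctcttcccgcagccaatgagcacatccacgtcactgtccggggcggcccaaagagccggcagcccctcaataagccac
The 4 E-box genes changed by different amounts. Slc16a1 and Ldha were among the 6 largest rises of the 35 genes after 3 or more divisions and Ndufv1 rose moderately, whereas Pfkm hardly moved and Hk2, with no E-box in this window, had the second largest rise. A match of letters is a description and shows no binding. Which gene start these cells used, and the part of the E-box in the changes, was not tested.

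After 3 or more divisions, 13 of 16 glycolysis genes and 12 of 19 respiratory chain genes were higher than in the control, and 0 of either were lower, at a limma adjusted p under 0.05 over all genes. By the same rule 27.6% of all genes were called, 15.9% higher and 11.7% lower. A fit with the replicate number as a block called 37.8% of all genes and 14 and 13 members. Among the 9097 genes above the median of mean intensity alone, 4458 were called, with 13 of 15 glycolysis and 13 of 19 respiratory chain genes. The median log2 change was 0.99 over the 16 glycolysis genes and 0.48 over the 19 respiratory chain genes, beside 0.02 over all genes. Both lists thus lay above the array's centre, glycolysis further, though the lists differed in brightness, as given below with their gap. The arrays of the 2 groups did not overlap for 14 glycolysis genes that were higher and 1 that was lower. The same held for 15 respiratory chain genes, all higher (34.6% of all genes were apart higher and 28.6% apart lower).

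**Figure D1:**
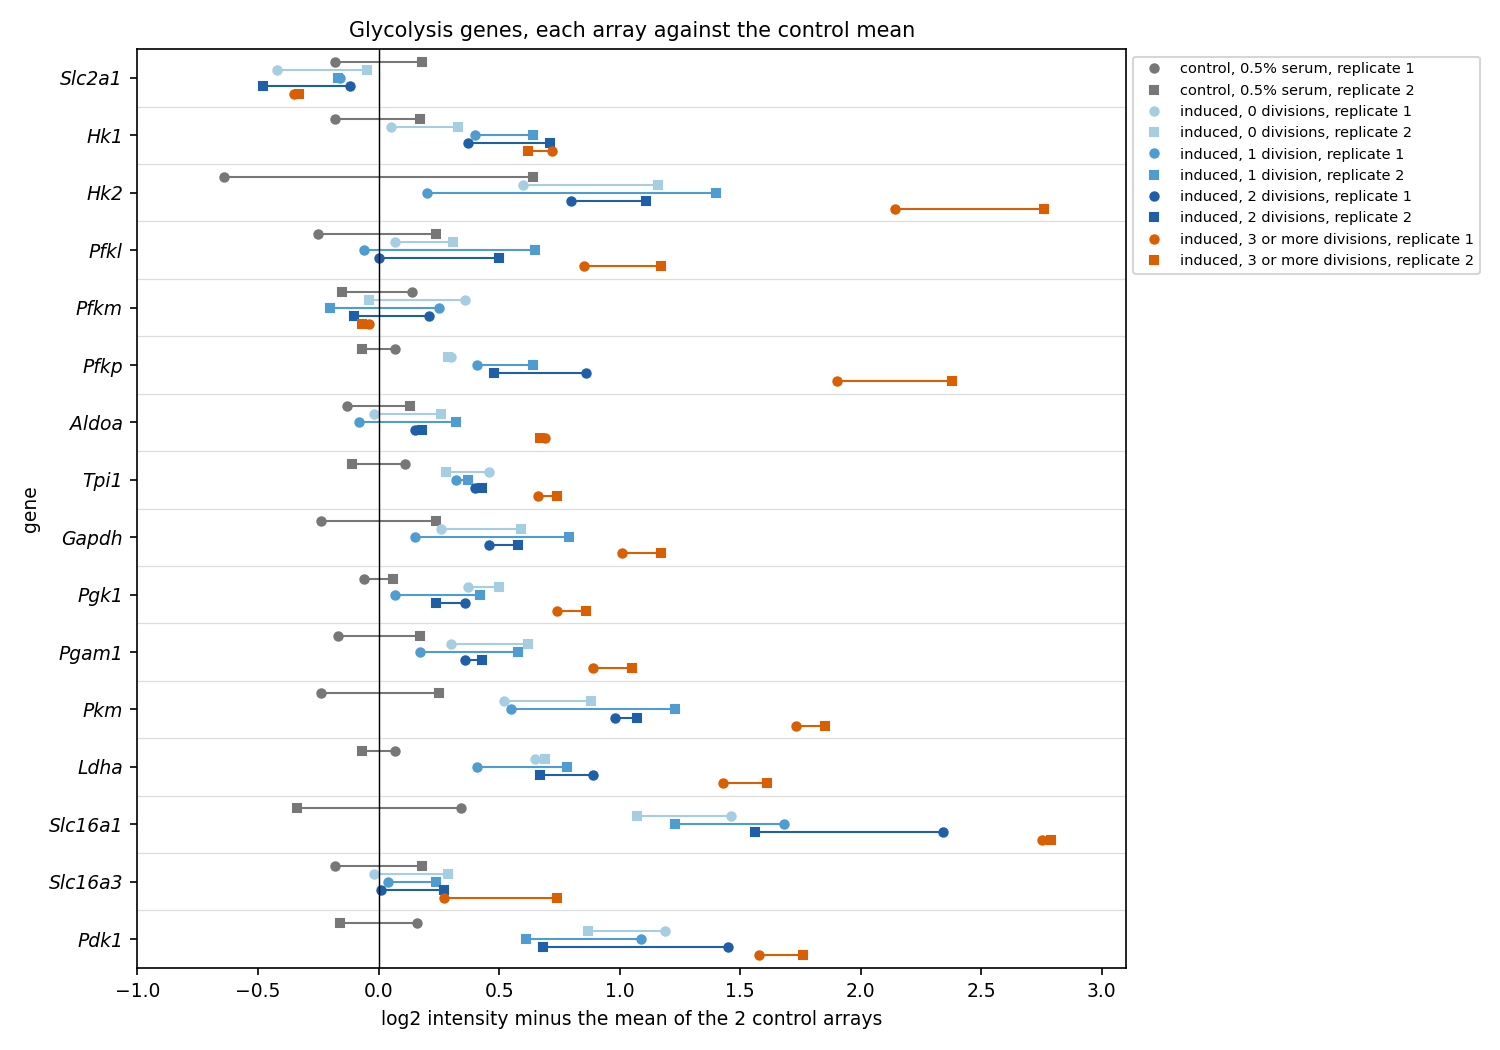
Log2 intensity of each glycolysis gene on each array minus the mean of the 2 control arrays; circles are replicate 1, squares replicate 2, a line joins both, and colours are the groups. The cohort of 3 or more divisions stands furthest right for Slc16a1, Hk2, Pfkp, Pkm, Pdk1 and Ldha and lies at or left of 0 for Slc2a1 and Pfkm.

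At the entry of the pathway the glucose transporter and the hexokinases behaved differently. Slc2a1 encodes GLUT1, the main glucose transporter of fibroblasts, and read 9.43 and 9.79 in the control, 9.19 and 9.56 after 0 divisions, 9.45 and 9.44 after 1, 9.49 and 9.13 after 2, and 9.26 and 9.28 after 3 or more. Its arrays overlapped between the control and the cohorts of 0, 1 and 2 divisions and lay just below the control after 3 or more, by -0.34 ± 0.18 (SE, adjusted p = 0.221); its other probe sets gave -0.15 and 0.05. Hk2, the inducible hexokinase that traps glucose as glucose 6-phosphate, read 6.69 and 7.97 in the control, 7.93 and 8.49 after 0 divisions, 7.53 and 8.73 after 1, 8.13 and 8.44 after 2, and 9.47 and 10.09 after 3 or more. Both arrays of the last cohort were above all 8 others, and the change from control was 2.45 ± 0.51 (5.46-fold, adjusted p = 0.00907), with wide replicates in the control. Hk1, the constitutive hexokinase, rose less, by 0.67 ± 0.18 (adjusted p = 0.0292), from 9.05 and 9.40 to 9.95 and 9.85.

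The phosphofructokinases catalyse the committed step, and their 3 genes parted. Pfkp, the platelet-type subunit, read 7.89 and 7.75 in the control, 8.12 and 8.11 after 0 divisions, 8.23 and 8.46 after 1, 8.68 and 8.30 after 2, and 9.72 and 10.20 after 3 or more. All induced arrays exceeded the control, and most of the distance came at the last step; the change from control was 2.14 ± 0.19 (4.42-fold, adjusted p = 0.000359), and the gene's other probe sets gave 1.42 and 0.87. Pfkl, the liver-type subunit, rose by 1.01 ± 0.29 (adjusted p = 0.0337), from 8.03 and 8.52 to 9.13 and 9.45. Pfkm, the muscle-type subunit, read 9.09 and 8.80 in the control and 8.91 and 8.88 after 3 or more divisions, a difference of -0.05 ± 0.21 (adjusted p = 0.888).

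**Figure D2:**
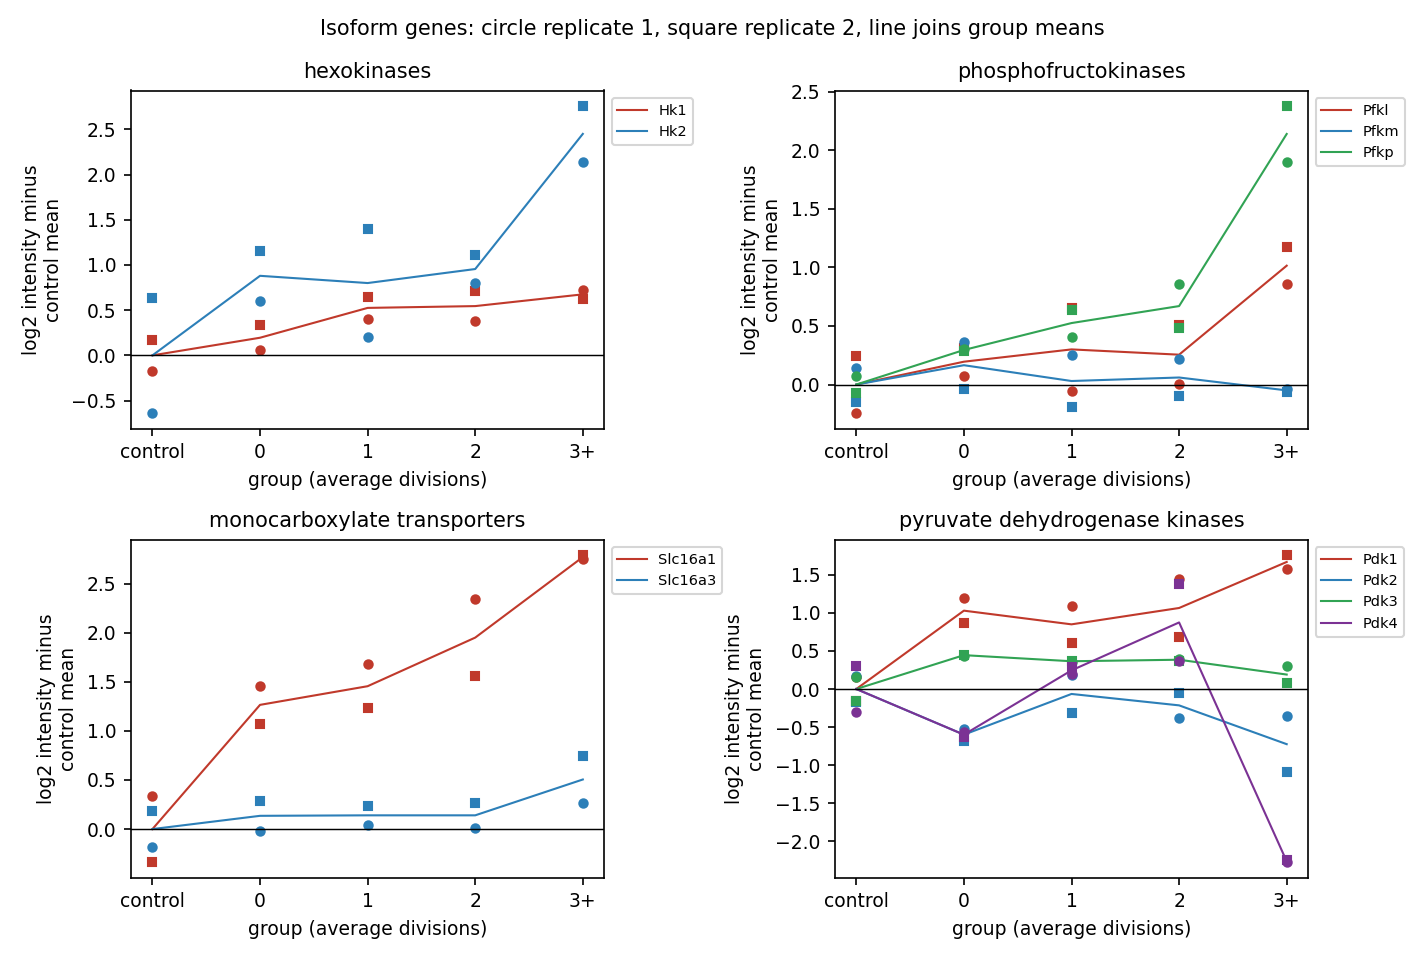
Log2 intensity minus the control mean for hexokinase, phosphofructokinase, monocarboxylate transporter and pyruvate dehydrogenase kinase genes, by group; circles are replicate 1, squares replicate 2 and lines join group means. Within each enzyme family 1 gene (Hk2, Pfkp, Slc16a1, Pdk1) is furthest above 0 after 3 or more divisions, and Pdk4 ends lowest.

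The enzymes of the middle of the pathway rose by smaller and similar amounts after 3 or more divisions. Aldolase A, Aldoa, which splits fructose 1,6-bisphosphate, rose by 0.68 ± 0.17, and triosephosphate isomerase, Tpi1, by 0.70 ± 0.12. Phosphoglycerate kinase, Pgk1, the first ATP-forming step, rose by 0.80 ± 0.14 and phosphoglycerate mutase, Pgam1, by 0.97 ± 0.19. Their adjusted p ranged from 0.00404 for Tpi1 to 0.019 for Aldoa. Gapdh, the dehydrogenase often taken as a constant reference gene, read 12.68 and 13.16 in the control, 13.18 and 13.51 after 0 divisions, 13.07 and 13.71 after 1, 13.38 and 13.50 after 2, and 13.93 and 14.09 after 3 or more, a change from control of 1.09 ± 0.24 (2.13-fold, adjusted p = 0.0125). These values are from the 3′ control probe set of Gapdh, and its 5′ and middle sets gave changes of 0.87 and 1.02. The lead of the 3′ over the 5′ control probe set of Gapdh was 0.06 and 0.03 in the control. After 3 or more divisions it was 0.27 and 0.26, and that of Actb was 0.26 and 0.26 in the control against 0.49 and 0.50. This measure of RNA integrity and labelling thus moved with the groups, and its part in the results was not tested.

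The end of the pathway moved more. Pkm encodes the pyruvate kinase that makes pyruvate and ATP, and read 10.79 and 11.28 in the control, 11.55 and 11.91 after 0 divisions, 11.58 and 12.26 after 1, 12.01 and 12.10 after 2, and 12.76 and 12.88 after 3 or more; its change from control was 1.78 ± 0.25 (3.44-fold, adjusted p = 0.00178). Ldha, the lactate dehydrogenase subunit that favours lactate formation, read 11.60 and 11.46, then 12.18 and 12.22, 11.94 and 12.31, 12.42 and 12.20, and 12.96 and 13.14 in the same order. It was above the control on every induced array, by 1.52 ± 0.16 (2.87-fold, adjusted p = 0.000532) after 3 or more divisions. Slc16a1, the monocarboxylate transporter MCT1, had the largest change of the 35 genes. It read 7.52 and 6.84 in the control, 8.64 and 8.25 after 0 divisions, 8.86 and 8.41 after 1, 9.52 and 8.74 after 2, and 9.93 and 9.97 after 3 or more. All 8 induced arrays lay above both control arrays, and the change after 3 or more divisions was 2.77 ± 0.32 (6.84-fold, adjusted p = 0.000781). The gene's other probe set gave 0.47. Slc16a3, the lactate exporter MCT4, was dim, at 3.86 and 4.22 in the control and 4.31 and 4.78 after 3 or more divisions, and its difference of 0.51 ± 0.21 was called only with the replicate block (adjusted p = 0.113 without and 0.00669 with it).

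Pdk1 encodes a kinase that shuts pyruvate dehydrogenase and so keeps pyruvate from the mitochondrion. It read 7.93 and 7.61 in the control, 8.96 and 8.64 after 0 divisions, 8.86 and 8.38 after 1, 9.22 and 8.45 after 2, and 9.35 and 9.53 after 3 or more. The change from control was 1.67 ± 0.28 (3.19-fold, adjusted p = 0.00332), while its other probe sets gave 1.55, 0.64 and -0.03. The other kinases of this enzyme differed from it. Pdk4, the kinase known to rise in fasting, read 7.42 and 8.02 in the control, 7.15 and 7.09 after 0 divisions, 7.92 and 8.01 after 1, 8.09 and 9.10 after 2, and 5.44 and 5.47 after 3 or more. Its lowest arrays were those of 3 or more divisions, where it fell by 2.26 on the log2 scale (SE 0.31, adjusted p = 0.00163). Pdk2 differed by -0.73 and was called only with the replicate block (adjusted p = 0.0875 without and 0.0313 with it), and Pdk3 differed by 0.19 ± 0.14 (adjusted p = 0.367).

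The 13 glycolysis calls depended in part on single arrays. Without replicate 2 of 3 or more divisions 7 remained, since Hk1, Hk2, Pfkl, Aldoa, Gapdh and Pgam1 then had adjusted p of 0.0558 to 0.187; Hk1, Pfkl and Aldoa also missed the threshold without replicate 1 of that cohort (0.0681 to 0.124), and these and Gapdh without control replicate 1 (0.0752 to 0.173). A floor of 16 ended the calls of Hk1 (adjusted p = 0.0545) and Pfkl (0.0796), and the mean of its probe sets that of Pfkl (0.0668).

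**Figure D3:**
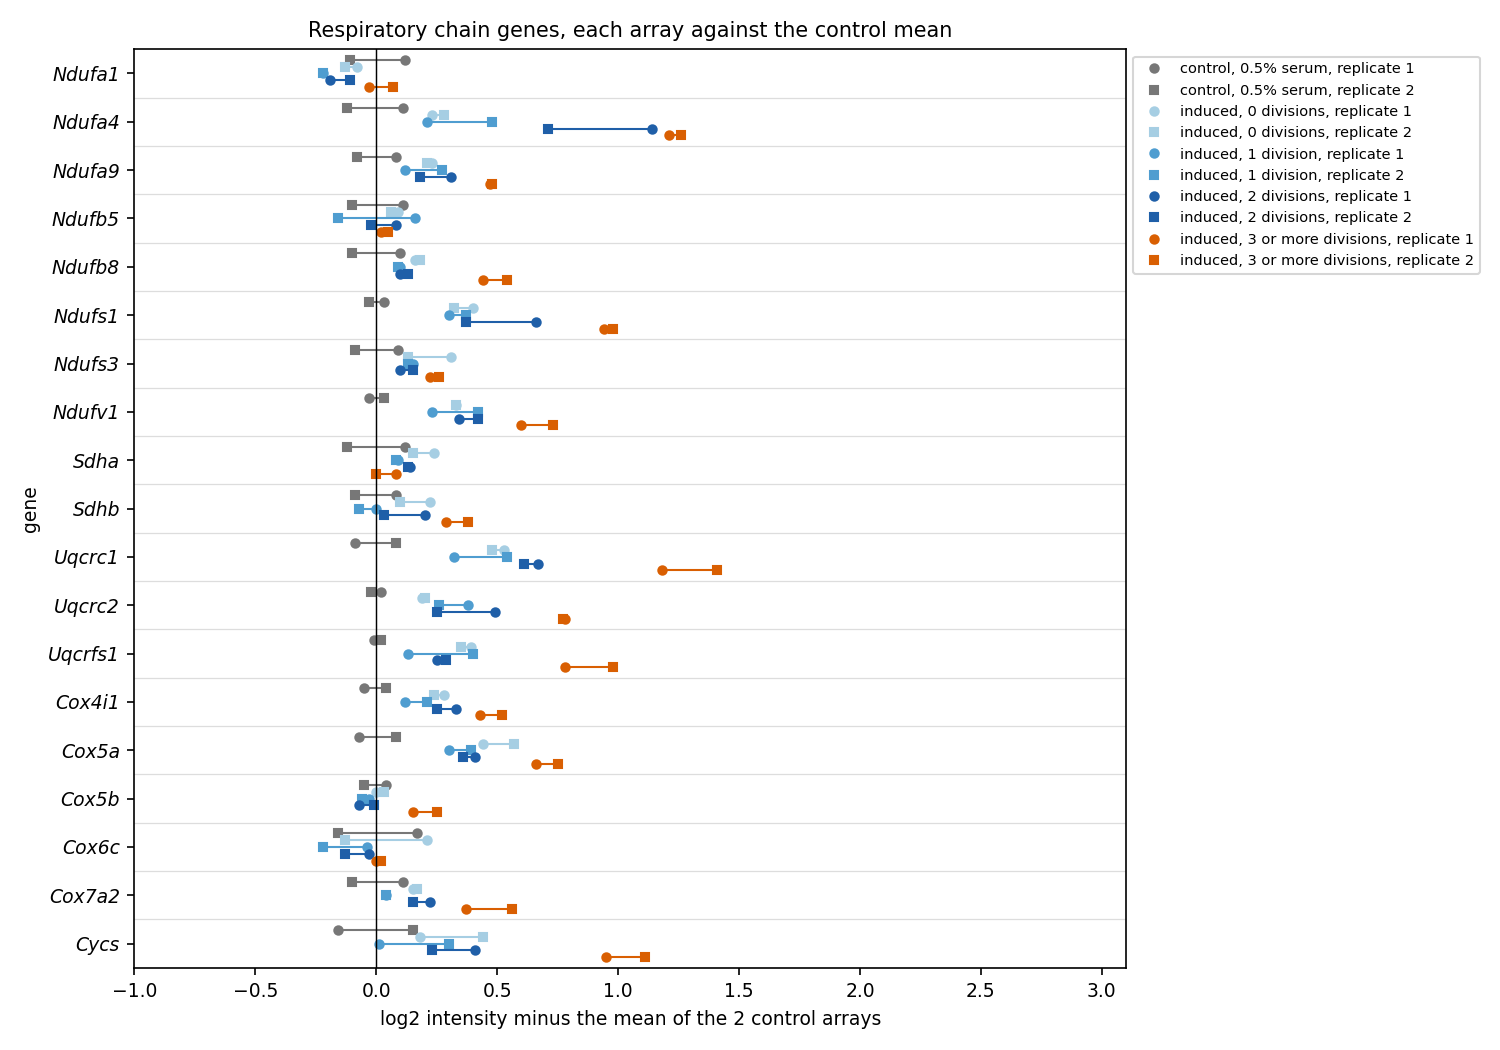
Log2 intensity of each respiratory chain gene on each array minus the mean of the 2 control arrays, on the same scale as the glycolysis genes; circles are replicate 1, squares replicate 2. Uqcrc1 and Ndufa4 reach furthest right, and Ndufa1, Ndufb5, Sdha and Cox6c stay around 0 in all groups.

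Along the respiratory chain, the genes called higher after 3 or more divisions were 4 of 7 of complex I and 0 of 2 of complex II. They were 3 of 3 of complex III and 4 of 6 of complex IV, with cytochrome c besides. Of all genes 15.9% were called higher. With the replicate block 1 of the 2 complex II genes was called. Of 26 other complex I genes 8 were called higher and 2 lower. So few listed genes do not set the complexes apart, and a difference between complexes was not tested. Of complex I, which takes electrons from NADH, Ndufs1 and Ndufv1 rose by 0.96 ± 0.12 (adjusted p = 0.0012) and 0.67 ± 0.11 (adjusted p = 0.00368). Ndufs1 read 10.32 and 10.26 in the control and 11.23 and 11.27 after 3 or more divisions, with the cohorts of 0, 1 and 2 divisions between, at 10.59 to 10.95. Ndufb8 and Ndufa9 rose by 0.49 ± 0.11 and 0.47 ± 0.11. Ndufs3 (0.24 ± 0.11), Ndufb5 (0.03 ± 0.14) and Ndufa1 (0.01 ± 0.12) were not called.

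Complex II, succinate dehydrogenase, feeds electrons from the tricarboxylic acid cycle. Its flavoprotein gene Sdha read 11.33 and 11.09 in the control and 11.29 and 11.21 after 3 or more divisions, an overlap, with a difference of 0.03 ± 0.12 (adjusted p = 0.866). Its iron-sulfur gene Sdhb read 11.93 and 11.76 against 12.14 and 12.23, and this difference of 0.34 ± 0.12 was called only with the replicate block (adjusted p = 0.0715 without and 0.0444 with it).

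Complex III, which passes electrons from ubiquinol to cytochrome c, rose in all 3 genes. Uqcrc1, a core subunit, read 10.21 and 10.38 in the control, 10.83 and 10.78 after 0 divisions, 10.62 and 10.84 after 1, 10.97 and 10.91 after 2, and 11.48 and 11.71 after 3 or more. Its change from control of 1.29 ± 0.13 (2.45-fold, adjusted p = 0.000516) was the largest of the 19 respiratory chain genes. The Rieske iron-sulfur gene Uqcrfs1 rose by 0.88 ± 0.13 and the other core gene Uqcrc2 by 0.78 ± 0.11. Cycs, the mobile carrier cytochrome c, read 11.99 and 12.30 in the control and 13.10 and 13.26 after 3 or more divisions, a rise of 1.03 ± 0.17 (2.05-fold, adjusted p = 0.00312); its other probe sets gave 1.23, 1.22 and 0.26.

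Complex IV, cytochrome c oxidase, hands electrons to oxygen. Ndufa4, first described in complex I and now assigned to complex IV, read 11.55 and 11.32 in the control, 11.67 and 11.72 after 0 divisions, 11.65 and 11.92 after 1, 12.58 and 12.15 after 2, and 12.65 and 12.70 after 3 or more. It was the respiratory chain gene with the largest difference between 2 and 0 divisions and reached 1.23 ± 0.17 over the control (2.35-fold, adjusted p = 0.00162). Cox5a rose by 0.71 ± 0.11, Cox4i1 by 0.48 ± 0.10 and Cox7a2 by 0.46 ± 0.12. Cox5b, at 13.75 and 13.66 against 13.86 and 13.96, differed by 0.21 ± 0.10 and was not called, with 0.48, 0.30, 0.27, -0.07 and 0.44 for its other probe sets, and Cox6c differed by 0.00 ± 0.16, with -0.26 for its other probe set. The paralogs Cox4i2, Cox7a1 and Ndufa4l2 were dim, with intensities of 3.54 to 5.64, and none of these 3 was called.

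Of the 12 respiratory chain calls, Ndufa9, Ndufb8, Cox4i1 and Cox7a2 were lost without replicate 2 of 3 or more divisions (adjusted p 0.0743 to 0.142). Ndufa9, Ndufb8 and Cox7a2 were also lost without control replicate 2 (0.0723 to 0.117), Cox4i1 without control replicate 1 (0.0615) and Ndufa9 without replicate 1 of 3 or more divisions (0.0634); fitted on the 4 compared arrays alone, these 4 genes missed the threshold (0.0569 to 0.0949).

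The mean shift of the glycolysis genes exceeded that of the respiratory chain genes on each of the 8 induced arrays and also on control replicate 2. Relative to the control mean, the mean shift of the 16 glycolysis genes was -0.09 and 0.09 on the control arrays, 0.38 and 0.50 after 0 divisions, 0.34 and 0.60 after 1, 0.59 and 0.52 after 2, and 1.06 and 1.24 after 3 or more. The mean shift of the 19 respiratory chain genes was 0.04 and -0.04, then 0.24 and 0.21, 0.12 and 0.17, 0.29 and 0.21, and 0.50 and 0.58. The induced arrays were above both control arrays in either list. Glycolysis minus respiratory chain was -0.13 and 0.13 in the control, 0.15 and 0.30 after 0 divisions, 0.22 and 0.42 after 1, 0.30 and 0.31 after 2, and 0.56 and 0.65 after 3 or more. The arrays of 3 or more divisions thus held the widest gap, the values after 1 division overlapped those after 0 and after 2, and those after 0 and 2 met at 0.30. The gap on control replicate 2 was thus close to the lowest after 0 divisions. The gap of the group means over the control was 0.22, 0.32 and 0.31 after 0, 1 and 2 divisions, and without control replicate 1 it was 0.09, 0.19 and 0.18; with the mean of probe sets it was 0.15, 0.24 and 0.19. In the comparison of 3 or more divisions with the control the gap of the list means was 0.61, or 0.47 with the mean of each gene's probe sets. The lists themselves overlapped: 6 glycolysis genes had larger changes than any respiratory chain gene, and 2 had smaller changes than all of them. No test of this gap was made, since the lists were chosen with results known. The lists also differed in brightness. By mean intensity among all genes, the respiratory chain genes lay between percentiles 93 and 99.7. Of the 6 glycolysis genes with the largest changes, Hk2 lay at 69.7, Pfkp at 72.2, Slc16a1 at 73.8 and Pdk1 at 74.1. Pkm and Ldha lay at 97.6 and 98.4. The part of brightness in the gap was not tested.

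**Figure D4:**
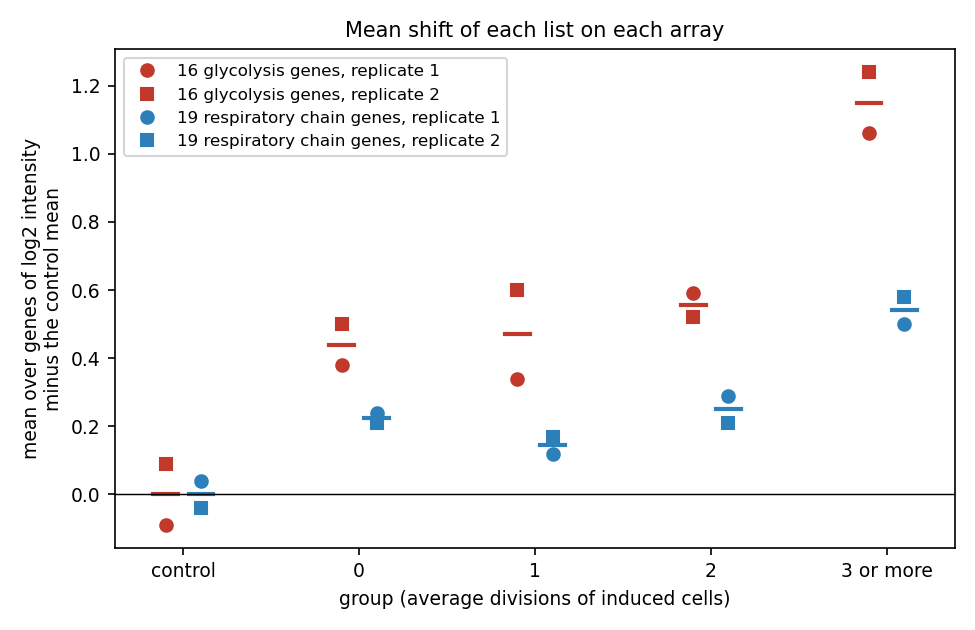
Mean over the genes of a list of log2 intensity minus the control mean, for each array; red is glycolysis (16 genes), blue the respiratory chain (19 genes), circles replicate 1, squares replicate 2 and bars group means. Both lists lie above 0 on all 8 induced arrays, with the highest values, 1.06 and 1.24 against 0.50 and 0.58, after 3 or more divisions.

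The comparison of induced cells labelled with 0 divisions with the control asked what had moved without division. Here 0 of 16 glycolysis genes and 0 of 19 respiratory chain genes were called by limma, against 0.297% of all genes, with 2136 genes at an unadjusted p under 0.05. The median log2 change was nonetheless 0.39 for glycolysis and 0.22 for the respiratory chain, beside 0.00 over all genes, and the arrays were apart and higher for 9 and 15 of them (21.4% of all genes). The 3 members past the threshold with the replicate block, where 3.25% of all genes were called, were Slc16a1 at 1.27 (block adjusted p = 0.0157), Pdk1 at 1.03 (0.0321) and Cox5a at 0.50 (0.0432). Slc2a1 and Ndufa1 were the members below the control, at -0.24 and -0.11.

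After 1 division, again 0 members of either list were called, against 1.24% of all genes and with 2669 genes at an unadjusted p under 0.05. The medians were 0.42 for glycolysis and 0.16 for the respiratory chain. With the replicate block 3 glycolysis genes passed, Slc16a1 at 1.46, Pdk1 at 0.85 and Pkm at 0.88, and 0 respiratory chain genes, against 7.02% of all genes.

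After 2 divisions, 2 glycolysis genes, Slc16a1 at 1.95 ± 0.32 (adjusted p = 0.0151) and Ldha at 0.78 ± 0.16 (0.029), and 2 respiratory chain genes, Ndufa4 at 0.92 ± 0.17 (0.0221) and Uqcrc1 at 0.64 ± 0.13 (0.0308), were higher than the control, against 6.12% of all genes called and 4.07% called higher. With the replicate block 8 and 5 were called, against 15.5% of all genes; Hk1, Hk2, Pfkp, Gapdh, Pkm and Pdk1 joined in glycolysis, and Ndufs1, Ndufv1 and Cox5a in the respiratory chain. The medians were 0.46 and 0.24. Without replicate 1 of 2 divisions, or without control replicate 2, 0 of the 35 were called; without control replicate 1, 1 was; and without replicate 2 of 2 divisions Ldha and Uqcrc1 missed the threshold (adjusted p 0.0625 and 0.0942). Fitted on these 4 arrays alone, 0 members passed, and Ldha also missed the threshold with a floor of 16 (adjusted p = 0.0531).

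The comparison of 2 with 0 divisions lies within one array set and within induced cells, and it asked whether the genes moved with division itself. Of the 16 glycolysis and 19 respiratory chain genes 0 were called, with or without the block, against 0.055% of all genes (1.13% with the block) and with 1412 genes at an unadjusted p under 0.05. The median log2 change was 0.05 and -0.04. The 2 largest differences were Slc16a1 at 0.68 ± 0.32 (adjusted p = 0.684) and Ndufa4 at 0.67 ± 0.17 (0.325), and both had arrays apart between the groups. Hk2 differed by 0.08, with a standard error of 0.51 without and 0.23 with the block, and Ldha by 0.11 ± 0.16.

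**Figure D5:**
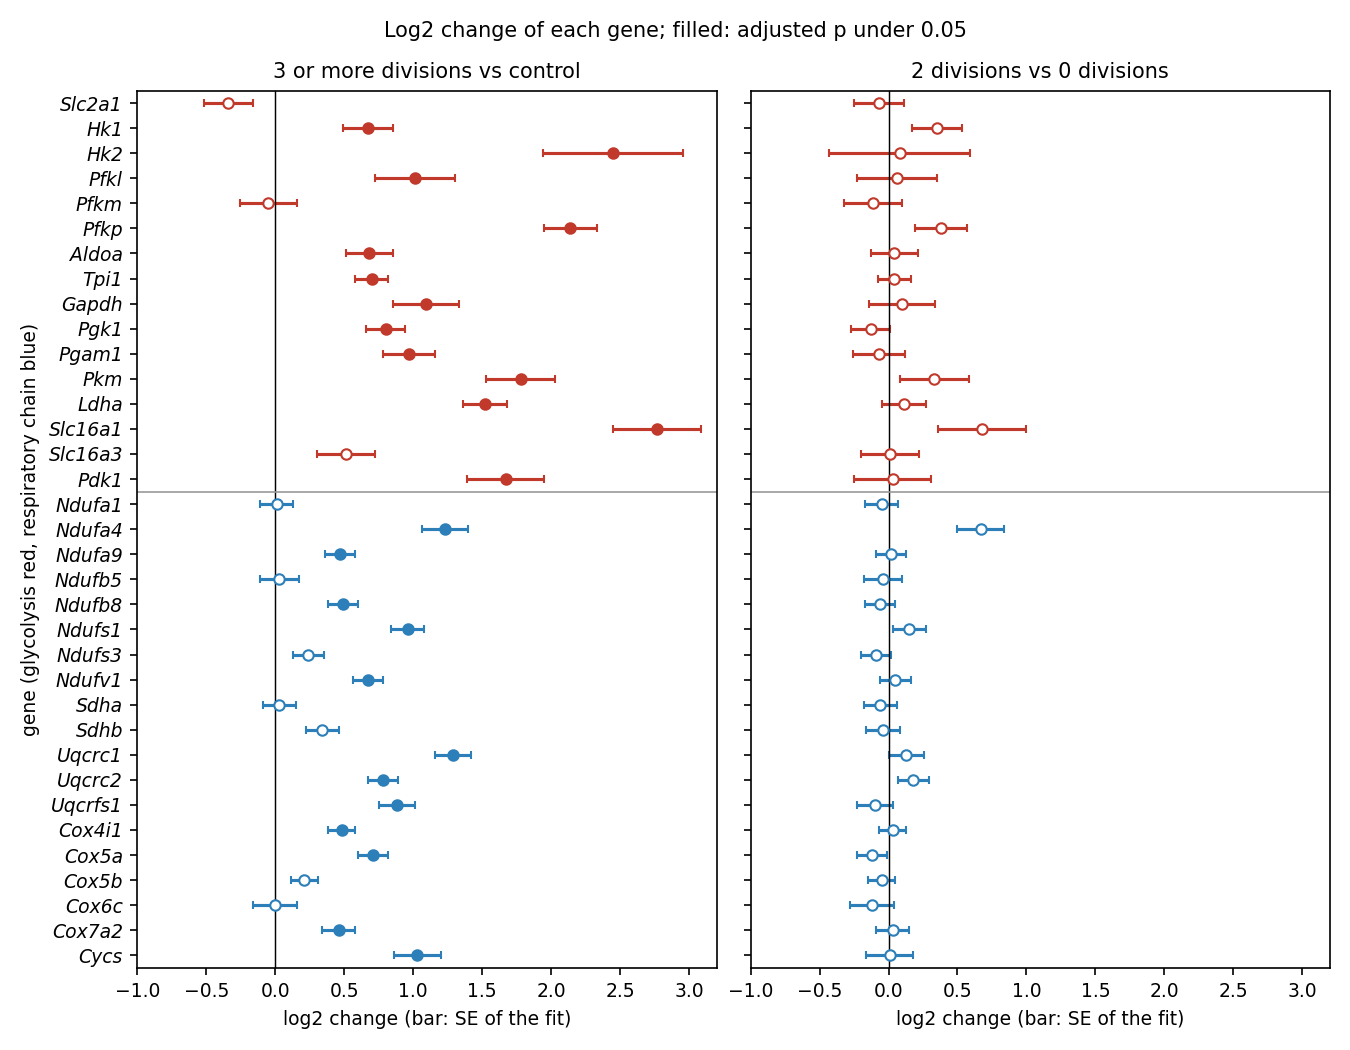
Log2 change of each gene with its standard error from the fit, for 3 or more divisions against the control (left) and 2 against 0 divisions (right); red is glycolysis, blue the respiratory chain, and filled points have an adjusted p under 0.05. On the left 25 points are filled, all to the right of 0, and on the right 0 are filled.

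Between 3 or more and 2 divisions, 2 glycolysis genes and 3 respiratory chain genes were higher, against 5.97% of all genes called and 3.46% called higher: Pfkp at 1.47 ± 0.19 (adjusted p = 0.0171), Ldha at 0.74 ± 0.16 (0.0377), Uqcrc1 at 0.65 ± 0.13 (0.0345), Uqcrfs1 at 0.61 ± 0.13 (0.0361) and Cycs at 0.72 ± 0.17 (0.0498). The block called 10 and 5, against 19% of all genes, among them Hk2 at 1.49 and Pfkl at 0.76. The medians were 0.57 and 0.28 beside 0.03 over all genes. Each of the 5 calls was lost without some array: without replicate 2 of 3 or more divisions, or without replicate 2 of 2 divisions, 0 of the 35 passed, and without replicate 1 of either cohort only Pfkp did. Cycs also missed the threshold in the values as deposited (adjusted p = 0.0629), after median centring (0.0586) and with a floor of 16 (0.0792), Ldha with that floor (0.0624), and Ldha and the 3 respiratory chain genes on the 4 compared arrays alone (0.0565 to 0.0681).

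Across the groups in the order of control, 0, 1, 2 and 3 or more divisions, the group means rose at every step for 7 of 16 glycolysis genes (43.8%), namely Hk1, Pfkp, Aldoa, Gapdh, Pkm, Slc16a1 and Slc16a3. The same held for 2 of 19 respiratory chain genes (10.5%), Ndufa4 and Uqcrc2, and for 7.67% of all genes. The arrays of neighbouring groups could still overlap, as for Hk1 at 9.05 and 9.40 in the control and 9.28 and 9.56 after 0 divisions. Some steps were tiny: the mean of Aldoa was 12.10 after both 0 and 1 division. That of the dim Slc16a3 was 4.17, 4.18 and 4.18 after 0, 1 and 2. The first and the last step also cross the array sets, where set and group cannot be told apart.

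Other genes of the same pathways were read for 3 or more divisions against the control. Of 21 other isoforms and regulators of glycolysis 4 rose and 2 fell (7 and 2 with the block), where 15.9% of all genes were called higher and 11.7% lower; nothing particular to this or the further lists is read from their counts. Slc2a3, the glucose transporter GLUT3, read 6.17 and 6.98 in the control and 7.55 and 8.37 after 3 or more divisions, and its difference of 1.38 ± 0.52 was called only with the block (adjusted p = 0.0882 without and 0.000502 with it). Bpgm, at 1.52, and Pfkfb3, at 0.91, were likewise called with the block alone (0.112 and 0.0726 without, 0.00158 and 0.00701 with it). The risers were not all enzymes of glucose breakdown. Fbp2, a fructose 1,6-bisphosphatase that works in the opposite direction, read 4.34 and 4.45 in the control, 4.89 and 4.70 after 0 divisions, 5.43 and 5.75 after 1, 7.98 and 7.27 after 2, and 8.41 and 7.85 after 3 or more. It climbed through the cohorts with no overlap between 1 and 2 divisions, by 3.73 ± 0.27 in all (13.3-fold, adjusted p = 0.00022), and it also rose between 0 and 2 divisions, by 2.83 ± 0.27 (adjusted p = 0.0366). That last call was lost without replicate 1 of 2 divisions (0.12), without either array of 0 divisions (0.334 and 0.285), on the 4 compared arrays alone (0.232) and with a floor of 16 (0.133). Tigar, a phosphatase that lowers fructose 2,6-bisphosphate, rose by 1.60 ± 0.28, the muscle enolase Eno3 by 1.86 ± 0.59 and the sperm-type Gapdhs by 0.55 ± 0.13. Ldhb, the lactate dehydrogenase subunit of oxidative tissues, fell by 0.76 on the log2 scale and the monocarboxylate transporter Slc16a7 by 0.81. Of these, Eno3, Gapdhs and Slc16a7 missed the threshold without either array of 3 or more divisions and without control replicate 1 (adjusted p 0.0672 to 0.24), and Ldhb without replicate 1 of either group (0.0728 and 0.0791). A floor of 16 ended the calls of Eno3 (0.117) and Slc16a7 (0.076), and the mean of probe sets that of Eno3 (0.0515).

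At the entry of pyruvate into the mitochondrion 5 of 12 genes rose and 2 fell (6 and 4 with the block, which added Pdp2 at 0.56 as higher and Pdk2 and the phosphatase gene Pdp1, at -1.87, as lower). Besides Pdk4, Mpc1, a subunit of the mitochondrial pyruvate carrier, fell by 0.91 on the log2 scale (SE 0.13, adjusted p = 0.00207), from 10.58 and 10.35 to 9.57 and 9.53. The pyruvate dehydrogenase genes Pdhx and Dlat rose, by 0.78 ± 0.16 and 0.75 ± 0.16, but without replicate 2 of 3 or more divisions their adjusted p was 0.0652 and 0.0647, and Dlat also missed the threshold without control replicate 1 (0.06). In the tricarboxylic acid cycle 11 of 15 genes rose and 0 fell, with a median of 0.63, led by Suclg2 at 1.66 ± 0.12 (adjusted p = 0.00022), Idh3a at 1.36 ± 0.24 and Fh1 at 1.06 ± 0.11. Suclg2, a subunit of succinyl-CoA synthetase, read 9.17 and 9.08 in the control, 9.97 and 9.98 after 0 divisions and 10.71 and 10.85 after 3 or more, and was also called after 0 divisions at 0.85 ± 0.12 (adjusted p = 0.0477). The call after 0 divisions was lost with any 1 of its 4 arrays left out (0.0922 to 0.299), on those arrays alone (0.247) and with a floor of 16 (0.0525). In the pentose phosphate pathway, which branches from glucose 6-phosphate, 3 of 7 genes rose (5 with the block) and 0 fell, with Pgd at 1.09 ± 0.12.

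Among the remaining subunits of the chain, 8 of 26 complex I genes rose and 2 fell, with a median of 0.25; Ndufab1 and Ndufa10 rose by 0.95 and 0.75, and Ndufa3 fell by 0.60 on the log2 scale, a call lost without control replicate 1 (adjusted p = 0.0569) or replicate 2 of 3 or more divisions (0.056). Of 16 other complex III and IV genes 5 rose (8 with the block) and 0 fell; Uqcr11 at 1.44, Cyc1 at 1.07 and Uqcr10 at 0.73 are all of complex III. ATP synthase had 8 of 16 genes higher and 0 lower, led by Atp5d at 0.92, Atp5b at 0.71 and Atp5g1 at 0.66, the last with 0.33 and no call for the mean of its probe sets (adjusted p = 0.0923) and no call without replicate 2 of 3 or more divisions (0.0601). Of 23 assembly factors 11 rose and 1 fell, led by Sco2 at 1.36, Ndufaf4 at 1.27 and Acad9 at 1.26.

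Among 18 regulators of mitochondrial biogenesis and oxygen sensing 12 rose and 2 fell. Egln3, a prolyl hydroxylase that marks hypoxia-inducible factors for removal, rose by 3.25 ± 0.35 (9.51-fold, adjusted p = 0.000652), from 4.61 and 5.39 to 8.08 and 8.42. Epas1, which encodes the hypoxia-inducible factor HIF-2 alpha, read 6.56 and 6.79 in the control, 8.01 and 8.62 after 0 divisions, 8.60 and 8.74 after 1, 9.35 and 9.25 after 2, and 9.19 and 8.82 after 3 or more. All 8 induced arrays were above the control, with a change of 1.64 ± 0.22 (adjusted p = 0.0452) after 0 divisions and 2.33 ± 0.22 (0.000388) after 3 or more. The call after 0 divisions was lost with any 1 of its 4 arrays left out (0.0629 to 0.295), on those arrays alone (0.247), with a floor of 16 (0.0877) and with the mean of probe sets (0.0918). Hif1a, which encodes HIF-1 alpha, went the other way and fell by 0.56 on the log2 scale after 3 or more divisions (SE 0.11, adjusted p = 0.00746), as did Vhl, which targets both factors for degradation, by 0.69. Hif1a missed the threshold without replicate 2 of 3 or more divisions (0.06), and Vhl with any 1 of the 4 arrays left out (0.0919 to 0.201), in the values as deposited (0.0591), after median centring (0.0933), with a floor of 16 (0.0798) and with the mean of probe sets (0.079). Ppargc1b, a coactivator of mitochondrial genes, rose by 2.31 ± 0.30 (4.96-fold), whereas its relative Ppargc1a differed by -0.55 ± 0.45 (adjusted p = 0.425).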

How the data were processed

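Messenger RNA was measured on 10 Affymetrix arrays, 2 in each of 5 groups. The authors deposited 1 table of linear intensity for 45101 probe sets, from 5.704 to 26570 with array medians of 31.42 to 33.95. RMA is named for 4 arrays (control and 3 or more divisions), per the submitters' processing notes; tools for the other 6 arrays, RMA's version and the genome build are not given in the sources used here. No detection calls were used, so which dim genes lie above background is not known, and the number of arrays limits the precision.

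Values were floored at 1 (0 moved), taken to log2 and quantile-normalized over the 10 arrays. Probe sets were named by the platform's gene table: 34958 with 1 gene were used, 932 with several and 9211 unlisted were not. By gene ID 34754 were found in RefSeq, with 0 symbols changed. The probe set with the highest mean stood for its gene, and levels of different probe sets are not compared. limma 3.58.1 in R 4.3.3 fitted 5 group means to all 10 arrays (5 residual degrees of freedom), two-sided, with Benjamini-Hochberg adjustment over 18194 genes. Values after ± are standard errors of the log2 change, n = 2 arrays a group, and fold is 2 to its power.

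The replicate numbers pair the samples: over the 9097 genes above the median, arrays that share a number strayed from their groups' means together, with Pearson's r between 0.477 and 0.872 for the 10 group pairs. The fit with the number as a block (4 residual degrees of freedom) is given where it changes a call of a listed gene against the control. It is also given where it moves a printed count of pathway genes by over 1.5 times. The marker counts are given without the block, and for the fibroblast markers also with it. The comparisons with the control share its 2 arrays.

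All listed genes are described. Of the other lists, isoform partners and some of the called genes with the largest changes are named, mostly for 3 or more divisions against the control. Others were called but not named, such as Aldoc, Idh3g and Pcx after 2 divisions and Tkt and Taldo1 after 3 or more. Single further genes (Slc16a7, Ldhb, Gapdhs, Slc2a3, Bpgm, Pfkfb3, Dlat, Pdp1, Pdp2, Hif1a, Vhl, Ppargc1a) were named after their values were seen. Members and lists were chosen with earlier results of these data known. On simulated data for 3 or more divisions against the control, over 18194 genes, the fit recovered 55% of 100 genes changed by a log2 of 1 and 89% of 100 changed by 2, with 5 false calls. Only these genes were changed, all above the median, and noise was drawn independently for each array. In the data 27.6% of all genes were called and the replicate numbers pair the arrays, so these rates need not carry over. Alternatives were the values as deposited, median centring, a floor of 16, genes above the median, the mean of probe sets, a variance trend, the block, the compared arrays alone and each array left out.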

Additional observations from a re-analysis of the deposited data

How the results depend on the processing

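The gap between the list means after 3 or more divisions was 0.47 with the mean of probe sets, against 0.61. With the replicate block, which pairs arrays by number, the count of glycolysis genes was 2 after 0 divisions, 3 after 1, 8 after 2 and 10 for 3 or more against 2 divisions, and that of respiratory chain genes 1 after 0 divisions, 5 after 2 and 5 for 3 or more against 2 divisions; it added Slc16a3 and Sdhb after 3 or more divisions against the control and changed no other call of a listed gene. A floor of 16 gave 1 glycolysis and 4 respiratory chain genes after 2 divisions and 1 glycolysis gene for 3 or more against 2. With genes above the median alone, 4 glycolysis genes were called after 2 divisions and 5 respiratory chain genes for 3 or more against 2. Fitted on the compared arrays alone, 0 and 0 were called after 2 divisions and 0 respiratory chain genes for 3 or more against 2. With 1 array left out, which leaves a lone array assumed to vary like the other groups, glycolysis calls ran from 7 to 13 and respiratory chain calls from 8 to 11 for 3 or more divisions against the control, from 0 to 2 and from 0 to 2 after 2 divisions, and from 0 to 1 and from 0 to 0 for 3 or more against 2; the gap of the list means ran from 0.48 to 0.73 for 3 or more divisions against the control. Of the 25 members called there, 15 kept the call with each array left out and 10 lost it at least once. The causes were not tested, and the fits that leave some arrays out also have fewer of them. No change of a called member turned its sign in any of the alternative fits.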

Other observations

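The replicate number moved with many glycolysis genes. Replicate 2 was brighter than replicate 1 in all 5 groups for 6 of the 16 (Hk2, Pfkl, Gapdh, Pgam1, Pkm and Slc16a3) and dimmer in all 5 for Pfkm, which makes 43.8%, against 1 of 19 respiratory chain genes (5.26%, Sdha) and 24.5% of all genes. Hk2 had the largest mean difference, 0.80, with 1.29 in the control and 1.20 after 1 division. Slc16a1 went the other way in 4 groups, with a mean of -0.45. The labels give no meaning to a number shared across groups; they call the arrays biological replicates only in the control and after 3 or more divisions.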
